A study of Mus musculus with 6 samples.

Results

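The complement system of tumours was examined through 31 of its genes, which encode components, receptors and regulators of the cascade. They were chosen by gene symbol from lists of known complement genes, and all 31 were found among the 57462 genes of the files. By role, 8 belong to the classical arm, 4 to the lectin arm and 2 to the alternative arm, with the central component C3, 2 terminal components, 5 receptors and 9 regulators or binding proteins. RNA sequencing was done on whole tumours of HM1, a mouse ovarian cancer cell line, taken in an early tumour model. In 3 tumours, shST3GAL3, the cells carried a short hairpin RNA against the sialyltransferase ST3GAL3, with the genotype given as ST3GAL3 knockdown. In 3 tumours, shControl, they carried a control hairpin, with the genotype given as wild type. No source used here gives the strain, sex or age of the host mice, the site of growth, or whether the hairpin lines were clones or pools. Separate host animals are not stated for the tumours of a group, and p-values therefore cover the spread between these samples alone, which may be technical.

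Complement is a chain of proteases and binding proteins in blood and tissue fluid that marks surfaces, attracts leukocytes and can punch pores into membranes. The classical arm starts when C1q binds antibody or other ligands, and its proteases C1r and C1s then cut C4 and C2. The lectin arm starts with ficolins or mannose-binding lectin and the MASP proteases, and the alternative arm amplifies through factor B and properdin. All arms meet at C3, from which the fragments C3a and C5a and the membrane pore follow. Most of the blood's complement comes from the liver, while C1q comes mainly from macrophages and dendritic cells, and fibroblasts, endothelium and macrophages make many components locally. Several of the genes, such as Serping1, C2 and Cfb, are known to be induced by interferon gamma.

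Levels are given as TPM, which corrects each gene for its length and scales every library to the same total. They keep no read counts, and library depth is therefore unknown. Each library had between 13930 and 14762 genes at 1 TPM or more. St3gal3, the targeted gene, stood at 8.44, 6.77 and 7.49 TPM in shST3GAL3 1, 2 and 3, against 14.03, 13.84 and 13.79 TPM in shControl 1, 2 and 3 (exact two-sided permutation p = 0.1, which is the lowest a design of 3 against 3 can give). The library shST3GAL3 1 stood apart from the other 5. Its mean correlation with the others was 0.937, against 0.968 to 0.973 for the rest, and the summed TPM of 7 fibroblast markers was 6228 there, against 1704 and 1171 in shST3GAL3 2 and 3 and 622 to 1013 in shControl. Log2 fold changes of the tested genes are therefore given with and without it. In whole tumours, fewer cells of a type and less RNA per cell cannot be told apart. Of the epithelial markers, Krt8 stood between 728 and 1295 TPM in the 6 libraries and Epcam at or below 1.17 TPM. The 6 hepatocyte markers summed to 0.35 TPM or less in every library, with Ttr and Cyp3a11 listed at 0 in all 6.

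Complement transcripts of the classical and alternative arms, C3 and most regulators had higher mean levels in shST3GAL3 than in shControl tumours. The 2 tested lectin genes had lower ones. However, no member passed the test over all genes. The sum of all 31 members was 3848, 2506 and 1954 TPM in shST3GAL3 1, 2 and 3, against 1821, 1673 and 1645 TPM in shControl 1, 2 and 3, so the groups did not overlap. Of the 31 members, 23 reached 1 TPM in 3 or more libraries and were tested with limma on log2(TPM + 1), and 8 did not and are given as values below. At an adjusted p under 0.05, 0 of the 23 members were called, beside 1 of all 14207 genes tested (0.00704%), and the smallest adjusted p of a member was 0.38. At an unadjusted p under 0.05, 12 members had higher values in shST3GAL3 (52.2%, against 9.19% of all genes) and 1 had lower ones (4.35%, against 3.78%). The member with lower values was Fcna. For 12 members every shST3GAL3 value lay above every shControl value (against 15.7% of all genes), and for Fcna every value lay below (7.76% of all genes have this pattern). The median log2 fold change was 0.53 over the 23 members and 0.01 over all genes. Without shST3GAL3 1 the median was 0.30, and 10 members were higher at an unadjusted p under 0.05, beside 8.54% of all genes. That number was 6 without shControl 1, 4 without shControl 2 and 7 without shControl 3, while the share of all genes was 5.73%, 4.41% and 4.76% in the same order. Fcna was lower at such a p in each case, as were 345, 303 and 245 of all 14207 genes without shControl 1, 2 and 3. Over all genes 70.8% of the 1842 with an unadjusted p under 0.05 were higher in shST3GAL3. That share was 51.2% after median-ratio scaling, under which 9 members were higher, beside 6.62% of all genes. Fcna was the 1 lower member under that scaling, beside 895 lower genes among all 14207.

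**Figure D1:**
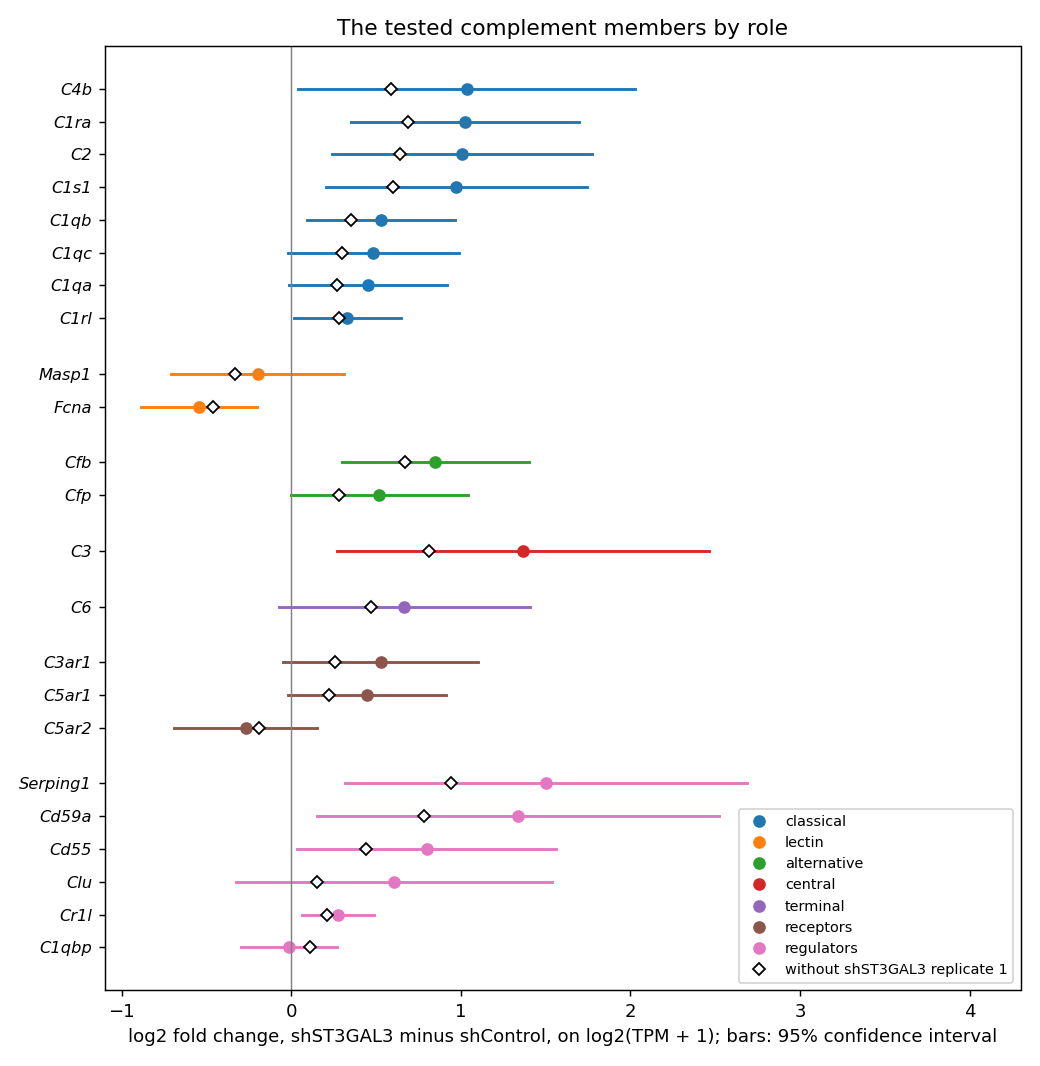
Log2 fold change (shST3GAL3 minus shControl, on the log2(TPM + 1) scale, x axis) of the 23 tested members by role, with 95% confidence intervals of limma as bars and n = 3 libraries a group; white diamonds give the value without shST3GAL3 replicate 1. The 8 classical members lie between 0.33 and 1.03, the 2 lectin members at -0.20 and -0.55, and leaving out shST3GAL3 1 moves most values towards 0.

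The first component of the classical arm, C1q, is built of chains A, B and C, encoded by neighbouring genes on chromosome 4. Its transcripts were the most abundant members in shControl tumours. C1qa stood at 701.53, 580.87 and 405.76 TPM in shST3GAL3 1, 2 and 3, against 430.84, 409.3 and 366.48 TPM in shControl 1, 2 and 3. C1qb stood at 555.41, 441.81 and 328.36 TPM in shST3GAL3, against 313.78, 305.49 and 279.7 TPM in shControl. C1qc stood at 447.62, 365.56 and 256.72 TPM in shST3GAL3, against 273.09, 267 and 210.08 TPM in shControl. The groups did not overlap for C1qb, while shST3GAL3 3 lay inside the shControl range for C1qa and for C1qc. After median-ratio scaling, 0 of the 3 C1q genes had all shST3GAL3 values above the shControl range. The log2 fold changes were 0.45 (SE 0.20) for C1qa, 0.53 (SE 0.18) for C1qb and 0.48 (SE 0.21) for C1qc, with limma adjusted p of 0.389, 0.38 and 0.389. Without shST3GAL3 1 they were 0.27, 0.35 and 0.30. The chains kept nearly the same proportion to each other in every library. The ratio of C1qa to C1qb was between 1.24 and 1.31 in shST3GAL3 and between 1.31 and 1.37 in shControl, and that of C1qa to C1qc was 1.57 to 1.59 in shST3GAL3 and 1.53 to 1.74 in shControl.

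The proteases that C1q carries, C1r and C1s, had larger log2 fold changes than C1q. C1ra, which encodes C1r, stood at 119.91, 65.76 and 54.09 TPM in shST3GAL3 1, 2 and 3, against 38.15, 32.2 and 39.65 TPM in shControl 1, 2 and 3. Every shST3GAL3 value was above the shControl range, with a log2 fold change of 1.02 (SE 0.28, limma adjusted p = 0.38), or 0.69 without shST3GAL3 1. C1s1, which encodes C1s, stood at 193.98, 90.56 and 88.31 TPM in shST3GAL3, against 67.08, 45.79 and 65.09 TPM in shControl. Its groups did not overlap either (0.97, SE 0.32, limma adjusted p = 0.38, and 0.60 without shST3GAL3 1). C1rl, a gene for a C1r-like protease, was lower in level at 6.60 ± 0.875 TPM in shST3GAL3 and 5.03 ± 0.284 TPM in shControl (SD, n = 3 each), without overlap. Its log2 fold change was 0.33 (SE 0.13), and 0.28 without shST3GAL3 1. C1ra and C1s1 each have a near copy in the genome. The longest transcripts of C1ra and C1rb are 97.9% identical over 2431 bases and those of C1s1 and C1s2 are 95.9% identical over 2643 bases, so reads could have been divided between copies in the authors' estimation.

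C4 and C2, the substrates of C1s, also had higher means in shST3GAL3 tumours. C2, whose product supplies the protease of the classical and lectin C3 convertase, stood at 51.63, 26.11 and 21.57 TPM in shST3GAL3 1, 2 and 3, against 14.37, 12.34 and 18.41 TPM in shControl 1, 2 and 3. Its lowest shST3GAL3 value was above the highest of shControl (log2 fold change 1.01, SE 0.32, limma adjusted p = 0.38, and 0.64 without shST3GAL3 1). C4b, which encodes C4, stood at 38.6, 20.39 and 10.6 TPM in shST3GAL3, against 7.89, 9.88 and 10.81 TPM in shControl. Here shST3GAL3 3 lay within the shControl range (1.03, SE 0.42, limma adjusted p = 0.382, and 0.59 without shST3GAL3 1). Its near copy C4a, 95.9% identical over 5378 bases, stood at 1.78, 0.91 and 1.07 TPM in shST3GAL3, against 1.01, 1.47 and 2.78 TPM in shControl, so its values overlapped while those of C4b were higher in shST3GAL3 1 and 2.

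C3, on which all arms converge, had among the larger differences of the members. It stood at 340.31, 134.09 and 85.31 TPM in shST3GAL3 1, 2 and 3, against 60.87, 65.28 and 55.7 TPM in shControl 1, 2 and 3. All shST3GAL3 values lay above the narrow shControl range, and shST3GAL3 1 was far above the rest. The means were 187 ± 135 TPM in shST3GAL3 and 60.6 ± 4.80 TPM in shControl (SD, n = 3 each). The log2 fold change was 1.37 (95% interval 0.27 to 2.46, limma adjusted p = 0.38), and 0.81 without shST3GAL3 1. The ratio of C3 to the collagen gene Col1a1, a fibroblast marker, overlapped between the groups, at 0.167, 0.266 and 0.231 in shST3GAL3 and 0.264, 0.329 and 0.187 in shControl.

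In the alternative arm, Cfb encodes factor B, the protease of its convertase, and Cfp encodes properdin, which stabilises that convertase. Cfb stood at 126.68, 104.06 and 73.21 TPM in shST3GAL3 1, 2 and 3, against 51.76, 45.22 and 68.77 TPM in shControl 1, 2 and 3. The groups came close, at 73.21 TPM in shST3GAL3 3 and 68.77 TPM in shControl 3, but did not overlap (log2 fold change 0.85, SE 0.23, limma adjusted p = 0.38, and 0.67 without shST3GAL3 1). Cfb and C2 are direct neighbours on chromosome 17. Cfp stood at 111.18, 73.44 and 60.87 TPM in shST3GAL3, against 52.38, 62.82 and 50.58 TPM in shControl, with shST3GAL3 3 below shControl 2 (0.52, SE 0.22, limma adjusted p = 0.386, and 0.28 without shST3GAL3 1).

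In the lectin arm, the 2 tested genes had lower means in shST3GAL3, and only for Fcna did the groups not overlap. At an unadjusted limma p under 0.05, 1 of the 23 tested members was lower (4.35%), which is near the 3.78% of all genes. Fcna, which encodes ficolin A, a recognition molecule made by macrophages, stood at 35.55, 38.19 and 47.62 TPM in shST3GAL3 1, 2 and 3, against 68.81, 53.59 and 56.02 TPM in shControl 1, 2 and 3. All shST3GAL3 values lay below the shControl range, and the lowest value was in shST3GAL3 1. In that library 19 of the 23 tested members had their highest value, a number that was not counted over all genes. The means were 40.5 ± 6.35 TPM in shST3GAL3 and 59.5 ± 8.18 TPM in shControl (SD, n = 3 each). The log2 fold change was -0.55 (95% interval -0.89 to -0.20) with the smallest unadjusted limma p of all members, 0.00715, and an adjusted p of 0.38. It was between -0.67 and -0.44 over the 13 alternative settings, with adjusted p between 0.138 and 0.662. Masp1, a protease of the lectin arm, stood at 8.14, 5.34 and 6.66 TPM in shST3GAL3, against 5.88, 9.89 and 7.97 TPM in shControl, with overlap (-0.20, SE 0.21, and -0.33 without shST3GAL3 1). Masp2, the protease that cuts C4 and C2 in this arm, was listed at 0 in 5 libraries and at 0.59 TPM in shControl 3. Fcnb, which encodes ficolin B, was listed at 0 in all 6. The recognition genes Mbl1 and Mbl2 were also listed at 0 in all 6 libraries.

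The promoters of C1qb, C1qc and Fcna are shown because these genes encode recognition molecules of the classical and lectin arms, are known in macrophages, and had differences of opposite sign. RefSeq promoter windows (250 bases before to 50 after the start site, build GRCm38.p6, while the files use GRCm39) were available for 23 of the 31 members. None was available for C1qa, C2, C4b, Masp1, Cfb, Serping1, Clu and Cfi, so the matches below do not cover these genes. Each line gives the 200 bases before the start site, 5′ to 3′ on the gene's strand. Capitals mark GAGGAA, 1 form of the sites for ETS factors such as PU.1 of myeloid cells, on either strand. TTCCTC thus marks it on the other strand, and other forms of ETS sites were not searched.
C1qb, chr4:136886201-136886400, minus strand: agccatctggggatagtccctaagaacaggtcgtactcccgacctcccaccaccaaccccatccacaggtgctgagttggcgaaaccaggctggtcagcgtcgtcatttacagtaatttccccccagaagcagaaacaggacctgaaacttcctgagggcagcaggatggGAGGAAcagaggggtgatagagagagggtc
C1qc, chr4:136892915-136893114, minus strand: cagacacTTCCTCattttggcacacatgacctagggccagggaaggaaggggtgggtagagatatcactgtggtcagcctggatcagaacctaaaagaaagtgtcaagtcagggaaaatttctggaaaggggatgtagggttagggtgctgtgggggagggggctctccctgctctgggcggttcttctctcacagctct
Fcna, chr2:25627975-25628174, minus strand: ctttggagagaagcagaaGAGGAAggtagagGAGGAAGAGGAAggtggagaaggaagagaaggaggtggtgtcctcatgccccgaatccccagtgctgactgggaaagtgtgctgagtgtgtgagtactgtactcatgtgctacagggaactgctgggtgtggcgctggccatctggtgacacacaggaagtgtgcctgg
In these stretches C1qb held 1 copy of GAGGAA, C1qc 1 and Fcna 3, of which a pair stood side by side. Over both strands of the whole window, GAGGAA was found in 8 of the 25 windows of these members (32%), against 28.3% of all 32851 promoter windows. The STAT dimer site TTCNNNGAA was found in 4 windows (16%, against 8.3% of all windows), those of C1ra, C7, Masp2 and Vtn. The interferon response element, a pair of GAAA copies with any NN between them, was found in 3 (12%, against 3.44%), those of Cd46, Cd59a and Vtn. Of the genes with either of these 2 motifs, C7, Masp2, Vtn and Cd46 were too low to be tested. These matches describe letters in the window and not binding.

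**Figure D2:**
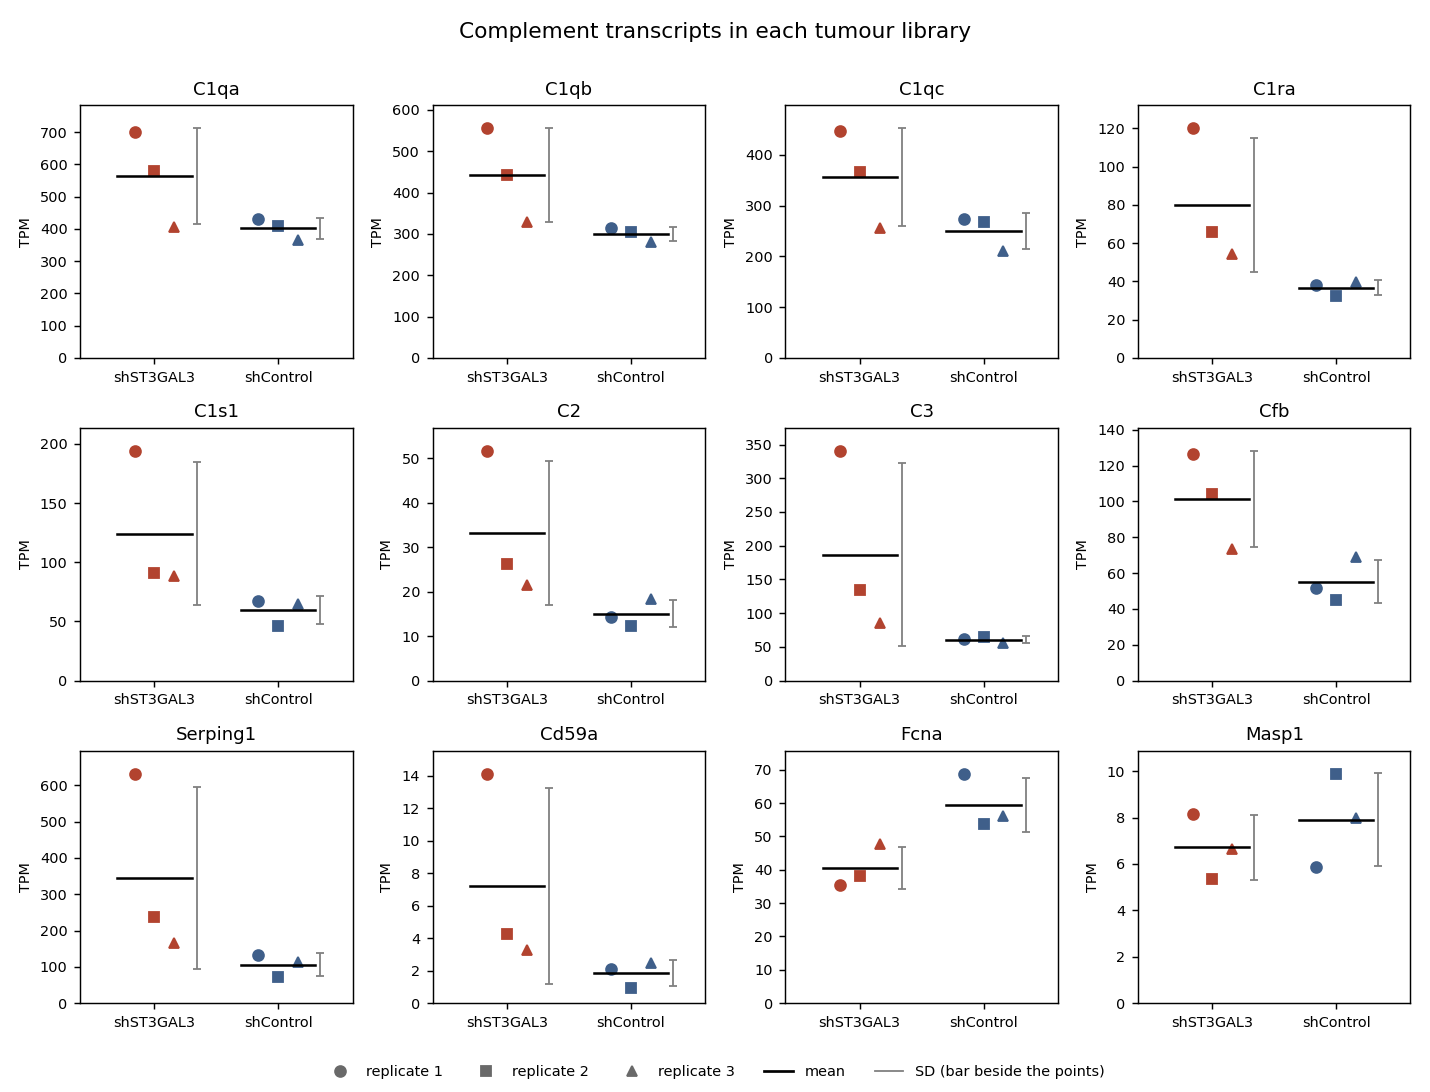
TPM (y axis, from 0) of 12 members in the shST3GAL3 and shControl libraries, with symbols for replicates 1 to 3, the mean as a black line and the SD as a grey bar beside the points. In the 10 members other than Fcna and Masp1 shST3GAL3 1 is the highest library, while Fcna is lowest there at 35.55 TPM.

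Of the terminal components, which form the membrane pore, C6 stood at 10.25, 7.65 and 5.51 TPM in shST3GAL3 1, 2 and 3, against 3.88, 7.09 and 3.01 TPM in shControl 1, 2 and 3. Its groups overlapped through shControl 2 (log2 fold change 0.67, SE 0.31, limma adjusted p = 0.4, and 0.47 without shST3GAL3 1). C7 was at or below 0.17 TPM in every library. The other pore genes were low as well. C8a, C8b and C9 did not exceed 0.09 TPM in any library, C8g stood between 0.46 and 1.26 TPM, and Hc, which encodes C5, stood at 1.12, 0.42 and 0.14 TPM in shST3GAL3, against 0.73, 0.12 and 0.35 TPM in shControl.

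Among the receptors, C5ar1, the G-protein-coupled receptor for C5a on myeloid cells, had the highest level. It stood at 52.01, 33.02 and 31.03 TPM in shST3GAL3 1, 2 and 3, against 28.96, 25.36 and 27.81 TPM in shControl 1, 2 and 3. The groups did not overlap (log2 fold change 0.45, SE 0.20, limma adjusted p = 0.389, and 0.22 without shST3GAL3 1). C3ar1, the receptor for C3a, stood at 31.25, 18.25 and 16.52 TPM in shST3GAL3, against 16.91, 13.34 and 13.16 TPM in shControl, with overlap (0.53, SE 0.24, and 0.26 without shST3GAL3 1). C5ar2, a C5a receptor that does not couple to G proteins, is the direct neighbour of C5ar1 on chromosome 7 and differed from it in sign. It stood at 1.84 ± 0.401 TPM in shST3GAL3 and 2.41 ± 0.344 TPM in shControl (SD, n = 3 each), with overlap (-0.27, SE 0.18, and -0.19 without shST3GAL3 1). The ratio of C5ar1 to C5ar2 was 34.2, 14.4 and 18.1 in shST3GAL3, against 13.0, 9.02 and 12.6 in shControl, without overlap. Vsig4, a C3b receptor of resident macrophages, was not tested, with 0.63, 0.4 and 0.39 TPM in shST3GAL3 and 0.13, 0.1 and 0.14 TPM in shControl. Cr2, the receptor of B cells and follicular dendritic cells, was at or below 0.14 TPM in every library.

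Regulators of the cascade were higher in mean for most tested members. Serping1 encodes the C1 inhibitor, which blocks C1r, C1s and the MASP proteases. It stood at 631.63, 238.1 and 164.3 TPM in shST3GAL3 1, 2 and 3, against 132.53, 71.27 and 113.25 TPM in shControl 1, 2 and 3. The groups did not overlap, and in shST3GAL3 1 the value was next to that of C1qa, the highest member there. The log2 fold change was 1.50 (95% interval 0.32 to 2.69, limma adjusted p = 0.38), and it was 0.94 without shST3GAL3 1. Serping1 made up 62.3%, 48.3% and 36.3% of the summed TPM of the 9 regulator genes in shST3GAL3 1, 2 and 3, against 35.0%, 23.7% and 31.1% in shControl 1, 2 and 3. Its ratio to the sum of C1ra and C1s1 was 2.01, 1.52 and 1.15 in shST3GAL3, against 1.26, 0.914 and 1.08 in shControl, with overlap.

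The membrane regulators act on host cells. Cd59a, which blocks the pore, stood at 14.13, 4.23 and 3.28 TPM in shST3GAL3 1, 2 and 3, against 2.11, 0.94 and 2.49 TPM in shControl 1, 2 and 3, without overlap (log2 fold change 1.34, SE 0.50, limma adjusted p = 0.38, and 0.78 without shST3GAL3 1). Cd55, which speeds the decay of C3 convertases, stood at 7.54, 3.41 and 2.74 TPM in shST3GAL3, against 1.95, 1.65 and 2.43 TPM in shControl, again without overlap (0.80, SE 0.32, limma adjusted p = 0.382, and 0.44 without shST3GAL3 1). Near copies exist for both, with Cd59b 83.2% identical to Cd59a over 739 bases and Cd55b 93% identical to Cd55 over 1053 bases. Cr1l encodes Crry, the widely expressed convertase regulator of rodents, and was the most abundant of the membrane regulators. It stood at 51.38, 47.44 and 42.68 TPM in shST3GAL3, against 37.89, 38.87 and 39.52 TPM in shControl. This difference was small, with all shST3GAL3 values above the shControl range (0.27, SE 0.09, limma adjusted p = 0.38, and 0.21 without shST3GAL3 1). Cd46, which in mice is known mainly from testis, was at or below 0.18 TPM in all libraries.

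The fluid-phase regulators and binding proteins varied more. Clu, which encodes clusterin, a chaperone that also binds terminal complexes, stood at 194.43, 59.86 and 94.04 TPM in shST3GAL3 1, 2 and 3, against 66.67, 61.27 and 75.35 TPM in shControl 1, 2 and 3. The lowest value of all was in shST3GAL3 2, so the groups overlapped (log2 fold change 0.60, SE 0.39), and the value was 0.15 without shST3GAL3 1. C1qbp encodes a mostly mitochondrial protein that binds C1q, and stood at 108.56, 137.82 and 144.81 TPM in shST3GAL3, against 137.04, 124.93 and 130.39 TPM in shControl. Its log2 fold change was -0.01 (95% interval -0.30 to 0.27) and turned to 0.11 without shST3GAL3 1, so no direction can be given. Cfi, for factor I, which cuts C3b and C4b, was not tested, with 3.82, 0.72 and 0.34 TPM in shST3GAL3 and 0.25, 0.4 and 0.55 TPM in shControl. Vtn, for vitronectin, was not tested either, with 2.79, 1.23 and 0.46 TPM in shST3GAL3 and 0.35, 0.71 and 0.38 TPM in shControl. For both, shST3GAL3 1 was the highest library and shST3GAL3 3 lay within the shControl range.

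Set side by side, the arms differed in level. The difference was negative only for the lectin arm, where it rests on 2 tested genes, of which Masp1 overlapped between the groups. The classical genes summed to 2116, 1597 and 1172 TPM in shST3GAL3 1, 2 and 3, against 1150, 1087 and 995 TPM in shControl 1, 2 and 3, and C1q made up between 80.6% and 90.3% of that sum in every library. The alternative genes summed to 238, 178 and 134 TPM in shST3GAL3, against 104, 108 and 119 TPM in shControl. The lectin genes summed to 43.7, 43.5 and 54.3 TPM in shST3GAL3, against 74.7, 63.5 and 64.6 TPM in shControl. For each arm the sums did not overlap between the groups, the lectin sum being below and the others above those of shControl. The classical sums came close, at 1172 TPM in shST3GAL3 3 and 1150 TPM in shControl 1, and those of C1q alone overlapped. C1q summed to 991 TPM in shST3GAL3 3 and 1018 TPM in shControl 1. Fcna alone made up between 81.4% and 92.1% of the lectin sum in every library, so that sum follows 1 gene. The median log2 fold change was 0.75 over 8 classical genes (6 at an unadjusted p under 0.05), 0.68 over 2 alternative genes (1), -0.37 over 2 lectin genes (1), 0.45 over 3 receptors (0) and 0.70 over 6 regulators (4). Without shST3GAL3 1 these medians were 0.47, 0.47, -0.40, 0.22 and 0.33. With all libraries, 9.19% of all genes were higher at an unadjusted p under 0.05. A share of 3.78% was lower, the direction of the lectin gene. Without shControl 1 the numbers at such a p were 4 classical genes and 1 regulator, without shControl 2 they were 1 and 0, and without shControl 3 they were 3 and 3. Of all genes, 5.73%, 4.41% and 4.76% were higher at such a p, in the same order. For the receptors the number was 1 without shST3GAL3 1, beside 8.54% of all genes, and 2 without shST3GAL3 3, beside 12.7%. No p is given for these sums and medians, since the genes were grouped with earlier results of these data known.

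The library with the highest level of most members was also the highest for markers of fibroblasts, endothelium, macrophages and neutrophils. Of the 23 tested members, 19 were highest in shST3GAL3 1 and 17 had their shST3GAL3 values in the order 1, 2, 3 from high to low. The same counts were not made over all genes, so it is not known whether these numbers are particular to complement. Medians over the classical members, against the shControl mean on the log2(TPM + 1) scale, were 1.29, 0.59 and 0.29 in shST3GAL3 1, 2 and 3, against 0.02 to 0.07 in shControl. Those of the 7 fibroblast markers were 3.06, 1.29 and 0.62 in shST3GAL3, against -0.31 to 0.41 in shControl, and those of the 8 macrophage markers 1.06, 0.40 and 0.14 in shST3GAL3, against -0.16 to 0.12 in shControl. Endothelial markers had medians of 1.80, 0.79 and 0.56 in shST3GAL3, against -0.17 to 0.19 in shControl. The 6 tested neutrophil markers had medians of 1.56, -0.41 and -0.09 in shST3GAL3, against -0.34 to 0.13 in shControl, and the 7 listed summed to 343, 65.7 and 114 TPM in shST3GAL3, against 125, 87.1 and 132 TPM in shControl. Neutrophils are known to carry C5ar1 and C3ar1 and to store properdin, the product of Cfp. For the 8 interferon gamma induced genes the medians were 0.70, 0.81 and 0.57 in shST3GAL3, against -0.18 to 0.16 in shControl, with shST3GAL3 2 the highest library. Of the epithelial markers, 4 were tested, with medians of -0.82, -0.29 and -0.03 in shST3GAL3, against -0.10 to 0.12 in shControl. The keratins Krt8, Krt18 and Krt19 had log2 fold changes of -0.33, -0.43 and -0.66, while Cdh1 went the other way at 0.46. Values lay above the shControl range for 6 of 7 fibroblast, 6 of 6 endothelial, 3 of 8 macrophage and 7 of 8 interferon gamma induced genes, beside 15.7% of all genes tested. The number was 1 of 6 for neutrophil and 0 of 4 for epithelial markers. For 1 epithelial marker the values lay below that range, beside 7.76% of all genes. The endothelial marker Tek reached 1 TPM in the shST3GAL3 libraries alone. It thus entered the endothelial count and medians only through the group where it was high. The macrophage markers summed to between 1463 and 2517 TPM in shST3GAL3 and between 1305 and 1515 TPM in shControl, and the endothelial ones to between 79.5 and 200 TPM in shST3GAL3 and between 41.7 and 56.3 TPM in shControl. Each fibroblast, endothelial and macrophage marker was above 0 in all 6 libraries. The part of cell content in the differences of the complement genes was not tested.

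**Figure D3:**
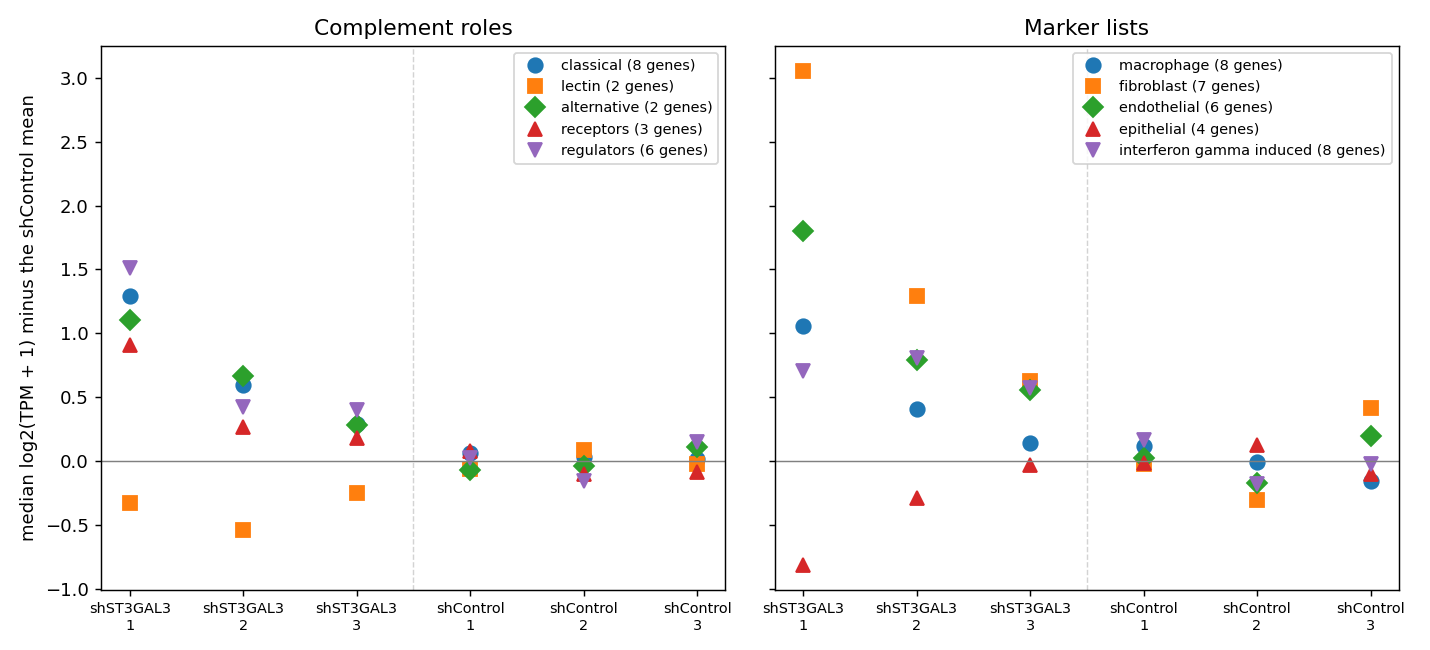
Median difference of log2(TPM + 1) from the shControl mean (y axis) in each of the 6 libraries (x axis), over the tested genes of 5 complement roles (left) and 5 marker lists (right). Classical, alternative and regulator genes are highest in shST3GAL3 1 and lowest of the 3 shST3GAL3 libraries in shST3GAL3 3, as are fibroblast and macrophage markers, while the lectin genes lie below 0 in all 3.

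C1q and ficolin A were also set against the macrophage markers of the same library. The summed C1q transcripts were 0.677, 0.741 and 0.677 of the summed TPM of the 8 macrophage markers in shST3GAL3 1, 2 and 3, against 0.780, 0.648 and 0.603 in shControl 1, 2 and 3, with overlap. Lyz2 makes up most of that sum. Set against each of the 8 macrophage markers singly, the ratio of C1qa overlapped between the groups for 7 and lay below the shControl range for Csf1r, the growth factor receptor of macrophages. The ratio of Fcna had a lower mean in shST3GAL3 for all 8 markers, and lay below the shControl range for 7, the exception being Adgre1. Fcna itself lay below the shControl range, and all 8 markers had positive log2 fold changes. Lower ratios follow largely from that, and all share Fcna, so they are not 8 separate results. As an example, Fcna per Csf1r was 0.228, 0.395 and 0.696 in shST3GAL3, against 1.21, 0.859 and 1.42 in shControl. The ratio of C1qa to Fcna was 19.7, 15.2 and 8.52 in shST3GAL3, against 6.26, 7.64 and 6.54 in shControl. This ratio did not overlap between the groups. All ratios given here between transcripts were chosen after the values were seen and are a description.

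**Figure D4:**
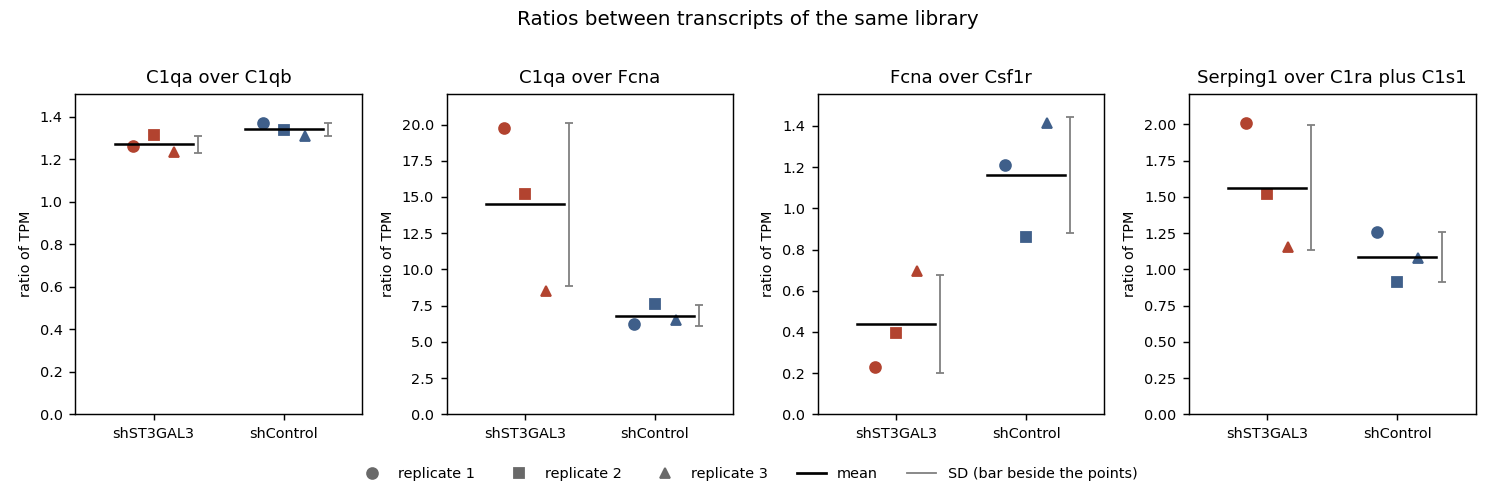
Ratios of TPM between transcripts of the same library (y axes from 0) in the shST3GAL3 and shControl libraries, with symbols for replicates 1 to 3, the mean as a black line and the SD as a grey bar. C1qa to C1qb varied little, between 1.24 and 1.37, while Fcna to Csf1r was at most 0.696 in shST3GAL3 and at least 0.859 in shControl.

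Of 35 further complement genes listed by role, 34 were found and 11 tested, with 0 called by limma at an adjusted p under 0.05. At an unadjusted p under 0.05, 6 were higher in shST3GAL3 and 0 lower, and for 8 the values lay above the shControl range, beside 9.19% and 15.7% of all genes tested. The median log2 fold change was 0.66, and 0.46 without shST3GAL3 1. Without that library the single values were 0.53 for Itgb2, 0.55 for Itgax, 0.25 for Itgam, 2.57 for Cfd, 0.78 for Colec12, 0.52 for C1s2, 0.35 for Cd93, 0.15 for Calr, -0.02 for Gpr108 and -0.42 for C4a. Itgb2, the shared chain of complement receptors 3 and 4, stood at 156.46, 110.47 and 98.42 TPM in shST3GAL3 1, 2 and 3, against 79.84, 72.12 and 64.23 TPM in shControl 1, 2 and 3 (0.73, SE 0.18, adjusted p = 0.38). Its partners Itgax (0.57, SE 0.16) and Itgam (0.50, SE 0.21) were also above the shControl range in all 3 tumours.

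Cfd encodes factor D, the protease that activates factor B and a product of adipocytes, and had a log2 fold change of 2.68 (SE 0.70, limma adjusted p = 0.38). That value was 2.00 without shControl 2 and 3.26 without shControl 1. Cfd stood at 21.24, 31.28 and 8.96 TPM in shST3GAL3 1, 2 and 3, against 5.79, 0.18 and 2.41 TPM in shControl 1, 2 and 3. The adipocyte marker Adipoq stood beside it at 3.04, 2.74 and 0.33 TPM in shST3GAL3, against 0.23, 0 and 0.22 TPM in shControl, and the part of adipocyte RNA in the difference was not tested. Colec12, a scavenger collectin, stood at 47.67, 19.05 and 12.72 TPM in shST3GAL3, against 10.61, 6.16 and 9.95 TPM in shControl (1.29, SE 0.46). Also at an unadjusted p under 0.05 were C1s2 (0.77, SE 0.23) and Cd93 (0.66, SE 0.27). Calr, for the C1q-binding chaperone calreticulin, was the most abundant gene of this list, at 641 TPM on average in shST3GAL3 and 535 TPM in shControl, and Gpr108 had a log2 fold change of 0.02 (SE 0.09), whose sign turned without shST3GAL3 1.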

How the data were processed

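Each of the 6 files gave 1 library as TPM, deposited by the authors for every gene to 2 decimals. That the values are TPM was read from their sums, 999999 to 1000001 per library. Per the submitters' processing notes, the tools were fastp, HISAT and RSEM on GRCm39, without versions. No source used here gives the annotation release or the strand setting. Gene length, the other deposited column, was not used in a test.

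Samples were grouped by title. Genes with at least 1 TPM in 3 or more libraries (14207) were tested with limma 3.58.1 (R 4.3.3) on log2(TPM + 1), using a mean-variance trend and the group alone. Benjamini-Hochberg adjustment ran over all 14207 genes, with a threshold of 0.05. Since 1 was added before the logarithm, fold changes of low genes are understated. No depth is recoverable from TPM, so precision rests on the replicates. The procedure was tested on simulated data.

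The members and lists were chosen with earlier results of these data known. All 31 members are named, with full values for those with the 12 smallest p and the most abundant of each role. Of the other complement genes, the text names those with the smallest p or a mean of at least 20 TPM, and others as values for low components. Of the genes this rule selects, 1 is not reported here. Alternatives were 2 other scalings, another pseudocount, 2 other filters, the replicate block, library weights and leaving out each library. Transcripts of near copies (GENCODE M21, longest per gene) were aligned with blastn 2.17.0. Promoter sequences and neighbouring genes came from RefSeq on GRCm38.p6.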

Additional observations from a re-analysis of the deposited data

How the results depend on the processing

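Over 13 alternatives, 0 members passed at an adjusted p under 0.05, and the smallest adjusted p of any member was 0.136, without shST3GAL3 3. Of 296 values of single members, 293 kept their direction. The exception was C1qbp, at 0.07 with library weights and between -0.09 and 0.11 when 1 library was left out. Over all genes, the 1 call became 2 with a pseudocount of 0.1, 8 with library weights (which include St3gal3, at -0.89, adjusted p = 0.0337, and otherwise 0.135 to 0.662) and 1 to 3 without 1 library. Genes higher at an unadjusted p under 0.05 numbered 626 to 1809 without 1 library. Genes lower numbered 895 with median-ratio scaling and 245 to 776 without 1 library.

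The 12 members higher at an unadjusted p under 0.05, beside 9.19% of all genes, became 4 to 17 without 1 library. Their number was 4 without shControl 2, 6 without shControl 1, 7 without shControl 3 and 17 without shST3GAL3 3. The share of all genes was 4.41%, 5.73%, 4.76% and 12.7% in the same order. The members' median of 0.53 was 0.45 with library weights and 0.30 to 0.71 without 1 library. The classical median was 0.71 with median-ratio scaling, 0.57 with weights and 0.47 to 0.95 without 1 library. The lectin median was -0.22 without a filter, -0.45 with weights and -0.44 to -0.29 without 1 library. The alternative median was 0.47 to 0.88 without 1 library. The receptor median was 0.27 with weights and 0.22 to 0.58 without 1 library. The regulator median was 0.44 at a mean of at least 5 TPM, 0.40 with weights and 0.33 to 0.95 without 1 library. The cause of these moves was not tested.

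With the replicate number as a block, 16 members were higher at an unadjusted p under 0.05, beside 9.73% of all genes, and 0 passed. The deviations of same-numbered libraries from their group means correlated at 0.0145, -0.0799 and 0.0402. No pairing by number was seen in these values, but with n = 3 libraries a group they cannot exclude one. The depth of the libraries is unknown, and low members such as C7 and Cr2 cannot be compared.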
